A study of Mus musculus with 4 samples.

Results

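Olfactory sensory neurons pass from an immature to a mature state in the epithelium, and 8 genes of the G protein cascade were followed across that passage: the alpha subunits Gnas and Gnal, the gamma subunits Gng8, Gng13 and Gng3, the beta subunit Gnb1, the chaperone and exchange factor Ric8b, and the adenylyl cyclase Adcy3. They were chosen by name, as 8 of the 49671 gene symbols in the deposited tables, and all 8 were present there. A heterotrimeric G protein couples a receptor to its effector: the alpha subunit binds GTP and leaves the beta and gamma pair, and in the cilia of mature olfactory neurons Gnal (G alpha olf), a close relative of the widely expressed Gnas (G alpha s), turns on Adcy3 after an odorant binds its receptor. The cAMP made by Adcy3 opens the cyclic nucleotide-gated channel. Gng13 and Gnb1 are the subunits known to partner Gnal in mature cells, and Gng8 is known from immature olfactory and vomeronasal neurons.

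The cells came from the olfactory epithelium of outbred CD-1 mice, for which the labels give no genetic change or treatment. Each of the 4 ages, postnatal day 0 (P0), day 3 (P3), day 7 (P7) and day 21 (P21), had 1 single-cell library. Cells were freed with papain and loaded as sorted samples. The labels do not state the gate of the sort or how many mice went into each library. The libraries held 2703, 3220, 1787 and 1416 cells with 9207027, 17770838, 8653791 and 6861044 UMIs (unique molecular identifiers, each standing for 1 captured transcript), where the labels state 1400 to 3000 captured cells. Of these cells, 8491 passed the filters and held enough UMIs to be staged. The P0 and P3 libraries had 68 cell barcodes in common, against 1 to 9 for every other pair. Without the cells of the 91 barcodes found in more than 1 library, the difference in the Gnal share between Omp and Gap43 cells, given with the alpha subunits, was 55.3 percentage points, and 55.2 points with them; none of the calls of the 8 genes in the stage contrasts changed.

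Stages were set from 2 marker genes that are not among the 8. Each cell was thinned to 1500 UMIs, and a marker counted as positive at 2 UMIs or more. This gave 1686 Gap43 cells (positive for Gap43, the growth-associated protein of immature neurons, and negative for Omp), 458 both-positive cells and 1823 Omp cells (positive for Omp, the olfactory marker protein, and negative for Gap43). At P0, P3, P7 and P21 there were 684, 518, 360 and 124 Gap43 cells, 154, 163, 69 and 72 both-positive cells, and 331, 336, 350 and 806 Omp cells. Cells negative for both markers gave 1145 precursor cells (by precursor markers that include Neurog1, Neurod1 and Tex15) and 1589 non-neuronal cells (by 24 markers of basal, supporting, stromal, glial, secretory, endothelial and blood cells). Levels are in CPM, the usual depth-scaled unit, in which the UMIs of all genes of the summed cells add up to the same total in every sum, and a mean ± SD is over the 4 libraries.

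The labels of the stages fitted their other markers. A set of 10 immature neuron markers, Gap43 included, summed to between 19933 and 24782 CPM in Gap43 cells, 9771 to 12379 CPM in both-positive cells and 2881 to 4401 CPM in Omp cells. A set of 9 mature neuron markers, Omp included, summed to between 2121 and 3688 CPM, 10150 to 14128 CPM and 28471 to 39774 CPM in the same order. Median depth was 3520 to 6674 UMIs in Gap43 cells, 4485 to 7084 UMIs in both-positive cells and 4329 to 5336 UMIs in Omp cells. Median doublet scores were higher in both-positive cells (0.0281 to 0.0780) than in Gap43 cells (0.0169 to 0.0344) and Omp cells (0.0132 to 0.0525) of the same library, and the part of doublets in the both-positive values was not tested. Removing the cells with the highest scores changed the call of 1 of the 8 genes in 1 contrast, named with Gnas.

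The stage contrasts asked whether each gene differed between stages on average over the 4 libraries. Whether a stage difference changed with age was not tested. UMIs were summed per library and stage and tested over 10240 genes with edgeR's quasi-likelihood test, with the library as a block and Benjamini-Hochberg adjustment. The libraries, at 4 different ages, are the replicates, so the p-values measure how far a stage difference recurs across them. In Omp cells against Gap43 cells all 8 genes passed an adjusted p of 0.05: Gnal, Gng13, Gnb1, Ric8b and Adcy3 were higher and Gnas, Gng8 and Gng3 lower. The background was high, since 56.9% of the genes tested passed (28.5% higher and 28.4% lower), so that passing the test sets none of the 8 apart. Most of their sizes were less common: 0.42% of the genes tested differed by as much as Gng8 in either direction, 1.26% by as much as Adcy3, 2.98% by as much as Gnal, 3.06% by as much as Ric8b and 3.16% by as much as Gnas. The share was 5.36% for Gng13, 9.43% for Gng3 and 20.9% for Gnb1. The 8 genes were chosen with earlier results of these data known. In both-positive over Gap43 cells 5 of the 8 were higher and 2 lower, where 33.4% of genes passed, and in Omp over both-positive cells again 5 and 2, where 17.1% passed. In Omp over Gap43 cells the median log2 fold change was 1.74 over the 8 genes and -0.02 over all genes. With library totals in place of TMM scaling the median of all genes moved to -0.16, and 39.7% of the called genes were higher, against 50.1% in the test as run. In this contrast the calls of the 8 genes held.

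**Figure D1:**
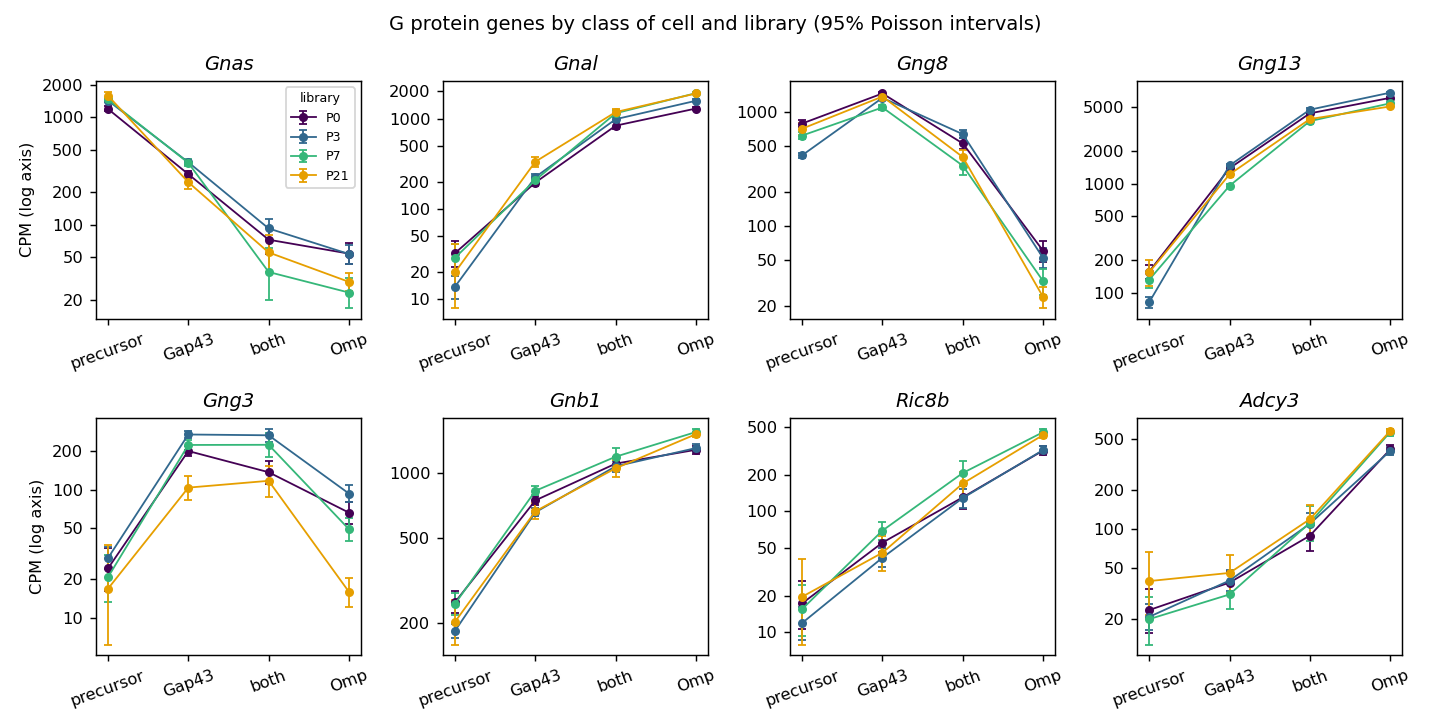
CPM (log axis) of the 8 genes in precursor, Gap43, both-positive ("both") and Omp cells, with 1 line per library and 95% Poisson intervals, which cover counting error only. Gnas runs down from precursors (1196 to 1588 CPM) to Omp cells (23.4 to 53.9 CPM) while Gnal runs up, and Gng8 peaks in Gap43 cells.

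Of the alpha subunits, Gnas (chromosome 2, 174284320 to 174346744 in mm10, plus strand) fell and Gnal (chromosome 18, plus strand) rose, and most of both changes lay between Gap43 and both-positive cells. Gnas stood at 296, 382, 377 and 249 CPM in the Gap43 cells of P0, P3, P7 and P21. In both-positive cells it stood at 72.7, 92.5, 36.4 and 55.3 CPM, and in Omp cells at 53.9, 53.5, 23.4 and 29.5 CPM. The Gap43 cells of every library lay above the both-positive and Omp cells of every library, while both-positive and Omp cells overlapped. Gnas was lower in both-positive than in Gap43 cells (log2 fold change -2.22 ± 0.20 SE, adjusted p = 6.3e-07) and lower in Omp than in Gap43 cells (-2.91 ± 0.17, adjusted p = 1.4e-09). Between Omp and both-positive cells it did not pass (-0.69 ± 0.25, adjusted p = 0.069), where 17.1% of genes did. That last comparison depended on the processing: it passed at -0.82 (adjusted p = 0.043) with the highest doublet scores removed and at -0.93 (adjusted p = 0.0070) with cells holding non-neuronal RNA removed, and turned to 0.41 (adjusted p = 0.35) with the gate at 1 UMI.

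Outside these stages Gnas was high. It stood at 1196, 1431, 1466 and 1588 CPM in precursor cells of P0, P3, P7 and P21, and at 1017, 1471, 1179 and 824 CPM in non-neuronal cells. All 8 of these values exceeded the highest value in Gap43 cells, 382 CPM, and the 2 groups overlapped each other; these differences were not tested. In Omp cells a Gnas UMI was seen in 6.95%, 5.65%, 3.71% and 1.99% of the thinned cells of the P0, P3, P7 and P21 libraries. In precursor cells it was seen in 80.3%, 81.9%, 71.8% and 80.0% of thinned cells. Unthinned, the shares were 14.5%, 13.7%, 10.3% and 4.22% of Omp cells and 93.0%, 96.2%, 93.3% and 98.2% of precursor cells. A set of 7 stromal and mural markers summed to 144, 287, 33.5 and 7.16 CPM in the Omp cells of P0, P3, P7 and P21, and how far RNA carried over from other cells enters the low Gnas level there was not tested.

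Gnal stood at 195, 224, 207 and 332 CPM in the Gap43 cells of P0, P3, P7 and P21. In both-positive cells it stood at 834, 985, 1146 and 1181 CPM, and in Omp cells at 1294, 1578, 1916 and 1901 CPM. The 3 stages did not overlap. It was higher in both-positive than in Gap43 cells (log2 fold change 2.20 ± 0.09 SE, adjusted p = 2.2e-10), where 17.9% of genes were higher, and higher again in Omp than in both-positive cells (0.77 ± 0.08, adjusted p = 1.8e-05), where 8.98% were. Omp over Gap43 cells it was 7.81-fold higher (2.97 ± 0.09, adjusted p = 1.25e-12). Precursor cells held 13.6 to 32.0 CPM and non-neuronal cells 7.92 to 23.4 CPM, and these 2 classes overlapped. Thinned Gap43 cells had a Gnal UMI in 20.5%, 21.4%, 22.2% and 29.0% of cases at P0, P3, P7 and P21. Non-neuronal cells, which should lack it, had one in 3.49%, 1.15%, 2.26% and 1.06%, at median depths of 2644, 3710, 4080 and 2634 UMIs. The Gap43 shares were above the non-neuronal ones in all 4 libraries.

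The exchange between the alpha subunits can be read from the share of Gnal among the UMIs of Gnas and Gnal together. A 3' library captures each transcript once whatever its length, but capture may differ between genes, so the share is compared between classes of cell and is not a molar ratio. It was 39.7%, 37.0%, 35.5% and 57.2% in Gap43 cells of P0, P3, P7 and P21. It was 92.0%, 91.4%, 96.9% and 95.5% in both-positive cells, and 96.0%, 96.7%, 98.8% and 98.5% in Omp cells. Precursor cells had 0.942 to 2.61%. The share was higher in Omp than in Gap43 cells in 4 of 4 libraries, by 55.2 ± 9.67 percentage points (SD, n = 4; two-sided exact permutation p = 0.125, the smallest 4 pairs allow). Of that difference, 51.6 ± 9.67 points lay between both-positive and Gap43 cells. Single cells seldom showed both transcripts at this depth: a UMI of each was seen in 3.65 to 8.87% of thinned Gap43 cells, 4.35 to 5.56% of both-positive cells and 1.24 to 4.46% of Omp cells, and 18.5 to 35.9% of Gap43 cells showed Gnas alone. At 1500 UMIs per cell, a gene not seen is not shown to be absent.

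**Figure D2:**
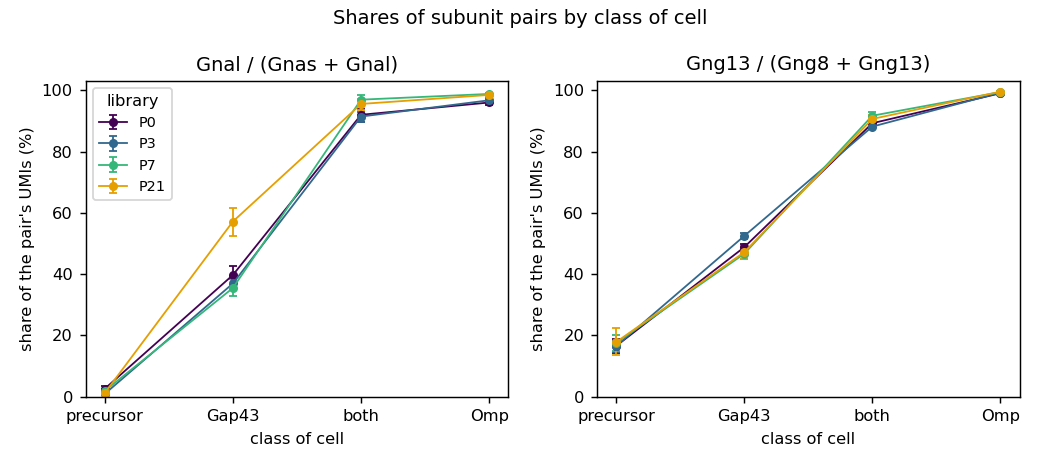
Share (percent of UMIs) of Gnal in Gnas plus Gnal (left) and of Gng13 in Gng8 plus Gng13 (right) in precursor, Gap43, both-positive ("both") and Omp cells, with 1 line per library and 95% exact binomial intervals. In both-positive cells the Gnal share is 91.4 to 96.9% and the Gng13 share 88.1 to 91.7%.

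Gamma subunits anchor the beta and gamma pair in the membrane, and here they changed at different points. The upstream sequences of Gng8 and Gng13, which moved in opposite directions, were set side by side and searched for the core of the EBF (Olf-1) motif, CCCNNGGG, which reads the same on both strands. EBF factors are known regulators of olfactory neuron genes. The 250 bases before the start site are shown from RefSeq on GRCm38.p6, 5′ to 3′, with the motif in capitals, for Gng8 (chr7:16891536-16891785, plus strand) and the upstream start of Gng13 (chr17:25716922-25717171, plus strand).
Gng8: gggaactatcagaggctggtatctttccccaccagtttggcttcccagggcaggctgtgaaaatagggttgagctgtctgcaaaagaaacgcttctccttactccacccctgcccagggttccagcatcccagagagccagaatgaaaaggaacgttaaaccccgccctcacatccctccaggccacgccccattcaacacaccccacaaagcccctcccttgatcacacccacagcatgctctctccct
Gng13: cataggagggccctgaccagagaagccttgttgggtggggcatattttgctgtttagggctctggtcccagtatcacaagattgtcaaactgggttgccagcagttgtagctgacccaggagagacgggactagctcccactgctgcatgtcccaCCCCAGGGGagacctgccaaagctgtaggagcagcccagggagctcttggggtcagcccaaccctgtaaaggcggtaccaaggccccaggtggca
The Gng13 window shown held 2 overlapping matches and the Gng8 window 0. A downstream Gng13 start (chr17:25717278-25717527), not shown, held 0. Windows were found for 7 of the 8 genes, all but Gnal. Of these 12 windows, 2 held the motif (the Gng13 window shown and 1 of the 4 Gnas starts), against 11.8% of all 32851 windows of the same length. A match describes these letters and is not evidence of binding.

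Gng8 (chromosome 7, 16891786 to 16895436, plus strand) was an early gene. It stood at 1451, 1328, 1094 and 1363 CPM in the Gap43 cells of P0, P3, P7 and P21. In both-positive cells it stood at 529, 638, 338 and 402 CPM, and in Omp cells at 60.7, 52.4, 32.9 and 23.9 CPM. Stages did not overlap, and the last step was the larger one on the log2 scale: the log2 fold change was -1.40 ± 0.13 for both-positive over Gap43 cells (adjusted p = 1.2e-06) and -3.51 ± 0.17 for Omp over both-positive cells (adjusted p = 7.9e-09), with 15.4% and 8.1% of genes lower. In CPM the first step was the larger, with means of 1309, 477 and 42.5 CPM in Gap43, both-positive and Omp cells. Precursor cells already held 417 to 791 CPM, against 8.38 to 44.6 CPM in non-neuronal cells, and Omp cells overlapped with the non-neuronal cells. Thinned precursor cells had a Gng8 UMI in 60.9%, 41.4%, 52.6% and 60.0% of cases at P0, P3, P7 and P21, against 6.35%, 4.02%, 6.13% and 1.06% of non-neuronal cells.

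Gng13 (chromosome 17, 25717171 to 25719406, plus strand) was present before Gng8 had gone. It stood at 1380, 1463, 955 and 1215 CPM in the Gap43 cells of P0, P3, P7 and P21. In both-positive cells it stood at 4388, 4738, 3725 and 3891 CPM, and in Omp cells at 6081, 6783, 5420 and 5074 CPM. It was higher in both-positive than in Gap43 cells (log2 fold change 1.81 ± 0.06 SE, adjusted p = 3.8e-11) and in Omp than in both-positive cells (0.56 ± 0.06, adjusted p = 2.2e-05). Non-neuronal cells had 67.3 to 109 CPM and precursor cells 82.2 to 157 CPM, which overlapped. Its share of the UMIs of Gng8 and Gng13 was 16.5 to 17.8% in precursor cells, 46.6 to 52.4% in Gap43 cells, 88.1 to 91.7% in both-positive cells and 99.0 to 99.5% in Omp cells. Omp cells exceeded Gap43 cells by 50.6 ± 2.74 points (n = 4; exact permutation p = 0.125, the smallest possible). Of that difference, 41.2 ± 4.12 points lay between both-positive and Gap43 cells. Unlike the alpha pair, both gamma transcripts were often seen in 1 cell: in 39.4 to 54.5% of thinned Gap43 cells, 21.7 to 39.9% of both-positive cells and 1.99 to 5.14% of Omp cells. The UMIs of the gamma pair are more numerous than those of the alpha pair, which raises the chance of seeing both.

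Gng3 (chromosome 19, 8836933 to 8839194, minus strand), a gamma subunit of many neurons, fell last. It stood at 200, 269, 223 and 104 CPM in the Gap43 cells of P0, P3, P7 and P21. In both-positive cells it stood at 137, 265, 224 and 117 CPM, and in Omp cells at 66.1, 93.1, 49.1 and 15.9 CPM. Between both-positive and Gap43 cells no difference passed (log2 fold change -0.06 ± 0.17 SE, adjusted p = 0.82), whereas Omp cells were lower than both-positive cells (-1.71 ± 0.19, adjusted p = 2.8e-05). Precursor cells had 16.8 to 29.2 CPM. Non-neuronal cells had at most 6.45 CPM.

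The beta subunit Gnb1 (chromosome 4, 155491361 to 155559269, plus strand), which forms the signalling pair with a gamma subunit, had the smallest change of the 8 genes in Omp over Gap43 cells. It averaged 723 ± 80.1 CPM in Gap43 cells, 1108 ± 61.2 CPM in both-positive cells and 1418 ± 140 CPM in Omp cells, and the 3 stages did not overlap. It was 2.16-fold higher in Omp than in Gap43 cells (log2 1.11 ± 0.07, adjusted p = 2.2e-09). Precursor cells had 183 to 249 CPM and non-neuronal cells 115 to 172 CPM.

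Ric8b and Adcy3 rose at both steps. Ric8b (chromosome 10, 84917616 to 85018337, plus strand) helps fold G alpha olf and acts as its exchange factor. It stood at 55.1, 41.4, 69.3 and 45.5 CPM in the Gap43 cells of P0, P3, P7 and P21, at 131, 129, 208 and 170 CPM in both-positive cells, and at 319, 322, 453 and 429 CPM in Omp cells. Stages did not overlap, and the 2 steps were of similar size, with log2 fold changes of 1.60 ± 0.12 (adjusted p = 8.7e-08) for both-positive over Gap43 cells and 1.35 ± 0.10 (adjusted p = 2.6e-07) for Omp over both-positive cells. Adcy3 (chromosome 12, 4133103 to 4213525, plus strand) stood at 38.3, 39.7, 30.9 and 45.5 CPM in Gap43 cells, at 88.7, 110, 112 and 119 CPM in both-positive cells and at 417, 405, 568 and 581 CPM in Omp cells. Its Gap43 cells overlapped with precursor cells (19.9 to 39.3 CPM). Its last step, 2.25 ± 0.12 (adjusted p = 1.7e-08), exceeded its first, 1.53 ± 0.15 (adjusted p = 2.3e-06), and it was 13.8-fold higher in Omp than in Gap43 cells. The steps of different genes were not tested against each other.

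The same order showed along a finer scale. Cells with at least 4 thinned UMIs of Omp and Gap43 together were placed in 6 bins by the Omp share of those UMIs (0, above 0 to 0.2, to 0.5, to 0.8, under 1, and 1), with 899, 282, 294, 242, 192 and 1404 cells and at least 22 per library and bin. As a mean of the 4 libraries, Gnas had fallen to 30.5% of its first bin by the third bin (102 CPM), when Gng8 was at 50.4% (736 CPM) and Gng3 at 93.9% (213 CPM). In the fourth bin Gng8 was at 10.5% and Gng3 at 62.0% of their first bin. On the rising side, Gng13 in the third bin was at 54.6% of its level in the last bin, Gnal at 46.9%, Ric8b at 28.8% and Adcy3 at 12.9%. In the fourth bin Adcy3 was at 24.8% and in the fifth at 68.0%, when Gnal had reached 92.7%. Gnb1 began at 49.4%. The Gnal share of the alpha pair was 28.2 to 51.9% in the first bin, 66.9 to 83.2% in the second and 85.6 to 90.7% in the third. These are descriptions, since bins share their library and the gate genes.

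**Figure D3:**
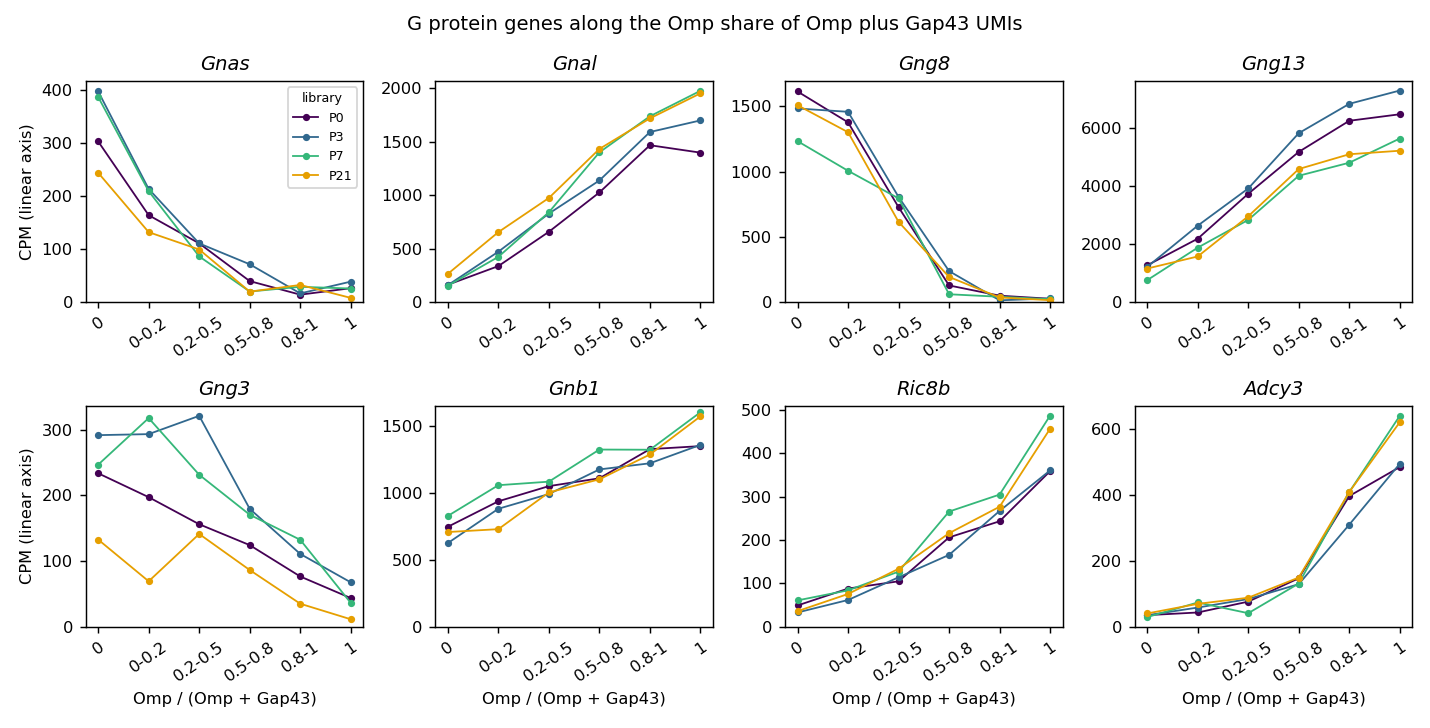
CPM (linear axis) of the 8 genes in 6 bins of the Omp share of Omp plus Gap43 UMIs, with 1 line per library and points placed at equal steps. As a mean of the libraries Gnas and Gng8 decline before Gng3, and Adcy3 stays under 150 CPM until the fifth bin (310 to 409 CPM).

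Age was examined within each stage. Each age is a single library, so no test was made, age and library cannot be told apart, and intervals cover counting error only. A gene was called by size when the P21 library differed from the P0 library at least 1.5-fold. In Omp cells 3 of the 8 genes were lower at P21 and 0 higher, where 10.2% and 11.8% of 3523 measured genes were. Gng3 stood at 15.9 CPM at P21 and 66.1 CPM at P0 (0.241-fold, 95% interval 0.172 to 0.336), with 93.1 CPM at P3 and 49.1 CPM at P7 between them. Gng8 stood at 23.9 CPM at P21 and 60.7 CPM at P0 (0.394-fold, 0.291 to 0.533), but against the P7 library it was at 0.726-fold (0.517 to 1.03), which ends the call. Gnas stood at 29.5 CPM at P21 and 53.9 CPM at P0 (0.546-fold, 0.406 to 0.737), but against the P7 library it was at 1.26-fold (0.874 to 1.84), and with cells holding non-neuronal RNA removed it was at 0.689-fold against P0, either of which ends the call. All 3 are genes of earlier stages, and Omp itself stood at 6363 CPM in the Omp cells of P21 and 3577 CPM in those of P0. The part of a more advanced mix of cells at P21 in these values was not tested. In the last bin alone, where thinned cells showed no Gap43 UMI, Gng3 stood at 11.3 CPM at P21 and 43.6 CPM at P0. Gng3 stood there at 67.5 CPM at P3 and 36.2 CPM at P7. Gng8 stood there at 14.1 CPM at P21 (10.3 to 18.8) and 25.04 CPM at P0 (15.9 to 37.6), on 45 and 23 UMIs. Gnas stood there at 7.82 CPM at P21 (5.06 to 11.5) and 26.1 CPM at P0 (16.7 to 38.9), on 25 and 24 UMIs. In that bin P3 and P7 had Gng8 at 27.3 and 21.3 CPM and Gnas at 38.6 and 25.5 CPM. Gnas at P21 thus lay below P7 (17.9 to 35.3) in the last bin, unlike among all Omp cells. Of the 111 Gnas UMIs in Omp cells of P21, 25 were in the last bin. Among all Omp cells Gap43 was seen in 10.0% at P21 and 21.1% at P0 thinned, but in 20.8% and 43.8% unthinned.

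The genes higher in Omp than in Gap43 cells were within 1.5-fold of P0 in Omp cells with the gate as set. Gnal was 1.47-fold higher at P21 than at P0 (1.40 to 1.55), Adcy3 1.39-fold (1.27 to 1.53), Ric8b 1.35-fold (1.21 to 1.49) and Gnb1 1.18-fold (1.12 to 1.25), while Gng13 was at 0.834-fold (0.814 to 0.856). Against P7 these 5 genes were at 0.936 to 1.02-fold, so the P7 and P21 libraries were close and P0 and P3 lower for all but Gng13. With the gate at 1 UMI, Gnal (1.75-fold), Ric8b (1.61-fold) and Adcy3 (1.60-fold) passed 1.5-fold against P0, and Gnal did with thinned sums (1.57-fold). Gng13 was highest at P3.

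In Gap43 cells Gnal was the gene called higher, at 332 CPM at P21 and 195 CPM at P0 (1.70-fold, 1.46 to 1.99), where 9.13% of 3723 measured genes (at least 50 CPM and 20 UMIs at either age, which Adcy3 missed) were higher. Its ratio was 1.15 when the gate used unthinned counts and 1.48 (1.28 to 1.71) against the P3 library, either of which ends the call. The 9 mature markers summed to 3688 CPM in the Gap43 cells of P21 and 2448 CPM in those of P0, and the part of this in the Gnal value was not tested. In the first bin, where thinned cells showed no Omp UMI, Gnal stood at 263 CPM at P21 and 162 CPM at P0. That bin is not free of Omp at full depth. Among all Gap43 cells Omp was seen in 21.0% at P21 and 22.7% at P0 thinned, but in 56.5% and 43.0% unthinned. Gng3 was the gene called lower, at 104 CPM at P21 and 200 CPM at P0 (0.518-fold, 0.405 to 0.656), where 5.48% of genes were, and it was also lower against P3 (0.385-fold) and P7 (0.465-fold). Gnas in Gap43 cells was at 0.842-fold against P0 (0.715 to 0.987) but past 1.5-fold lower against P3 (0.652-fold) and P7 (0.660-fold), as was Ric8b against P7 (0.656-fold).

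In both-positive cells none of the 8 genes was past 1.5-fold against P0 (13.5% of 3710 genes were higher and 9.08% lower), with Gnal at 1.42-fold (1.26 to 1.59) and Gng8 at 0.760-fold (0.634 to 0.909). This depended on the gate (Gng3 was at 0.518-fold and Gnal at 1.85-fold with the gate at 1 UMI) and on the library P21 was set against. Gng3 was at 0.857-fold against P0 (0.603 to 1.21), but at 0.441-fold against P3 (0.324 to 0.592) and 0.524-fold against P7 (0.366 to 0.743). Gng8 was at 0.630-fold against P3 (0.533 to 0.743) and 1.19-fold against P7. Gnas, with few UMIs, was at 0.598-fold against P3 (0.371 to 0.934) and 1.52-fold against P7 (0.765 to 3.15). In Gap43 and Omp cells Gng3 was the gene past 1.5-fold lower at P21 against each of the other 3 libraries.

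**Figure D4:**
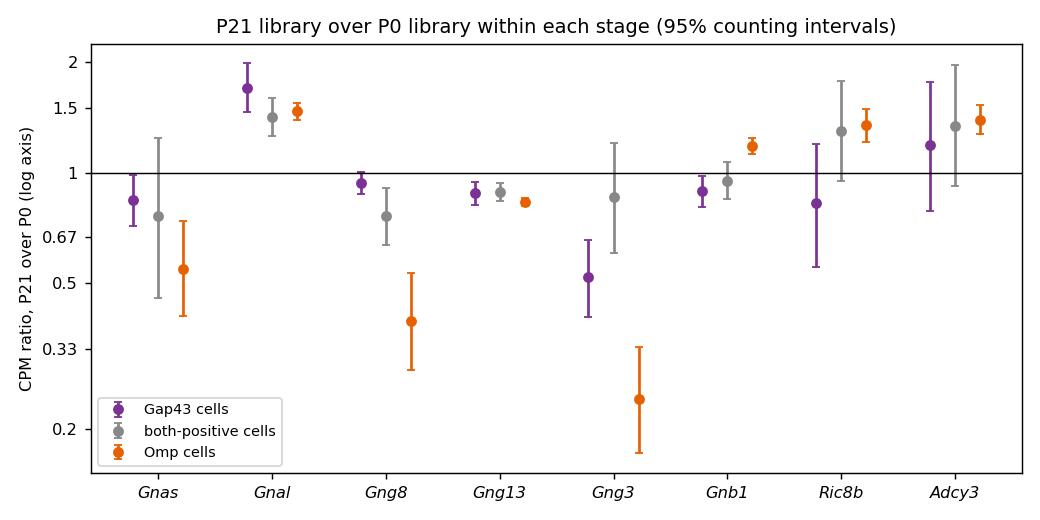
CPM ratio of the P21 library over the P0 library (log axis) for each gene in Gap43, both-positive and Omp cells, with 95% counting intervals and a line at 1. Gnal and Adcy3 lie above 1 in every stage, though the Adcy3 intervals in Gap43 cells (0.786 to 1.76) and both-positive cells (0.918 to 1.96) include 1. Gng3 and Gng8 lie lowest in Omp cells, at 0.241 and 0.394.

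Other genes of the cascade were taken from 6 lists. A listed gene could enter the test through its level in a single stage, and the direction of such a gene follows in part from that. Of 9 other gamma subunits 3 were tested, and all 3 were lower in Omp than in Gap43 cells. Of all genes tested 28.4% were lower, and the median log2 was -2.55 for the 3 subunits, against -0.02 over all genes. Gng2, at most 2.02 CPM in the Omp sums, and Gng12, at most 8.09 CPM, could pass the expression filter only with their Gap43 levels. The filter thus left these genes little room for the other direction. Gng2 averaged 0.839 ± 0.910 CPM in Omp cells and 14.2 ± 2.56 CPM in Gap43 cells (adjusted p = 9.7e-06), Gng12 3.50 ± 3.34 and 20.7 ± 10.2 CPM (adjusted p = 3.6e-06) and Gng5 72.5 ± 13.8 and 138 ± 10.9 CPM (adjusted p = 5.7e-06; its 3' end is nearly identical to another annotated gene, so its count is uncertain). Among the 6 gamma subunits tested, with Gng8 and Gng3, Gng13 alone was higher in Omp cells. That set was shaped by the filter and by the choice of Gng8, Gng13 and Gng3 by name, so it does not set Gng13 apart.

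Of 4 other beta subunits 3 were tested, with 2 higher and 1 lower (median log2 1.35), where 56.9% of all genes passed. Gnb2, a widely expressed beta subunit, averaged 10.5 ± 5.81 CPM in Omp cells and 84.0 ± 18.3 CPM in Gap43 cells (log2 -2.81 ± 0.21, adjusted p = 2.9e-08), and its both-positive cells already stood at 5.88 ± 5.58 CPM. Gnb5, which pairs with RGS proteins, averaged 60.0 ± 8.07 CPM in Omp cells and 25.7 ± 4.12 CPM in Gap43 cells (adjusted p = 4.3e-07), and Gnb4 8.31 ± 4.53 and 2.36 ± 1.74 CPM (adjusted p = 0.0067).

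Of 14 other alpha subunits 8 were tested, with 2 higher, 3 lower and 3 not past the threshold (median log2 -0.37), a share called near the 56.9% of all genes. The inhibitory subunits Gnai2 (6.48 ± 4.82 CPM in Omp cells and 27.0 ± 11.5 in Gap43 cells, adjusted p = 0.00021) and Gnai3 (12.1 ± 3.36 and 27.8 ± 2.43 CPM, adjusted p = 0.0014) were lower, as was the neuronal Gnao1 by less (120 ± 30.3 and 170 ± 37.2 CPM, adjusted p = 0.0017). Gnaz (77.3 ± 8.63 and 47.2 ± 5.71 CPM, adjusted p = 1.1e-05) and Gna12 (21.3 ± 4.59 and 8.94 ± 2.70 CPM, adjusted p = 0.00072) were higher.

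Of 21 chaperones and regulators 9 were tested, with 2 higher, 4 lower and 3 not past the threshold (median log2 -0.29), again near the 56.9% of all genes that passed. Ric8a, the relative of Ric8b that serves other alpha subunits, averaged 38.4 ± 6.32 CPM in Omp cells and 74.9 ± 3.30 CPM in Gap43 cells (log2 -0.83 ± 0.12, adjusted p = 1.9e-05), opposite in sign to Ric8b. The arrestin Arrb2 (68.2 ± 6.37 and 125 ± 3.48 CPM, adjusted p = 8.9e-06) and the chaperonin subunit Cct2 (157 ± 12.6 and 215 ± 17.1 CPM, adjusted p = 0.0017) were lower. Rgs7 (39.9 ± 7.07 and 11.1 ± 4.69 CPM, adjusted p = 1.6e-05) and Rgs3 (145 ± 51.3 and 60.3 ± 7.23 CPM, adjusted p = 3.4e-07), which speed GTP hydrolysis by alpha subunits, were higher. None of the 9 other adenylyl cyclases had enough UMIs to be tested, so Adcy3 was the one cyclase measured.

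Of 17 cAMP effectors and phosphodiesterases 12 were tested, with 7 higher, 1 lower and 4 not past the threshold (median log2 0.93), where 28.5% of all genes were higher, 28.4% lower and 56.9% passed in all. The channel subunits Cngb1 (99.5 ± 25.3 CPM in Omp cells and 9.81 ± 2.56 in Gap43 cells, adjusted p = 8.8e-11) and Cnga4 (348 ± 171 and 35.7 ± 6.76 CPM, adjusted p = 1.9e-11) and the cAMP-degrading Pde1c (255 ± 40.5 and 35.7 ± 7.42 CPM, adjusted p = 2.9e-12) led the list. Prkar1a, a regulatory subunit of protein kinase A, was slightly lower (276 ± 28.0 and 358 ± 32.6 CPM, adjusted p = 0.0047).

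**Figure D5:**
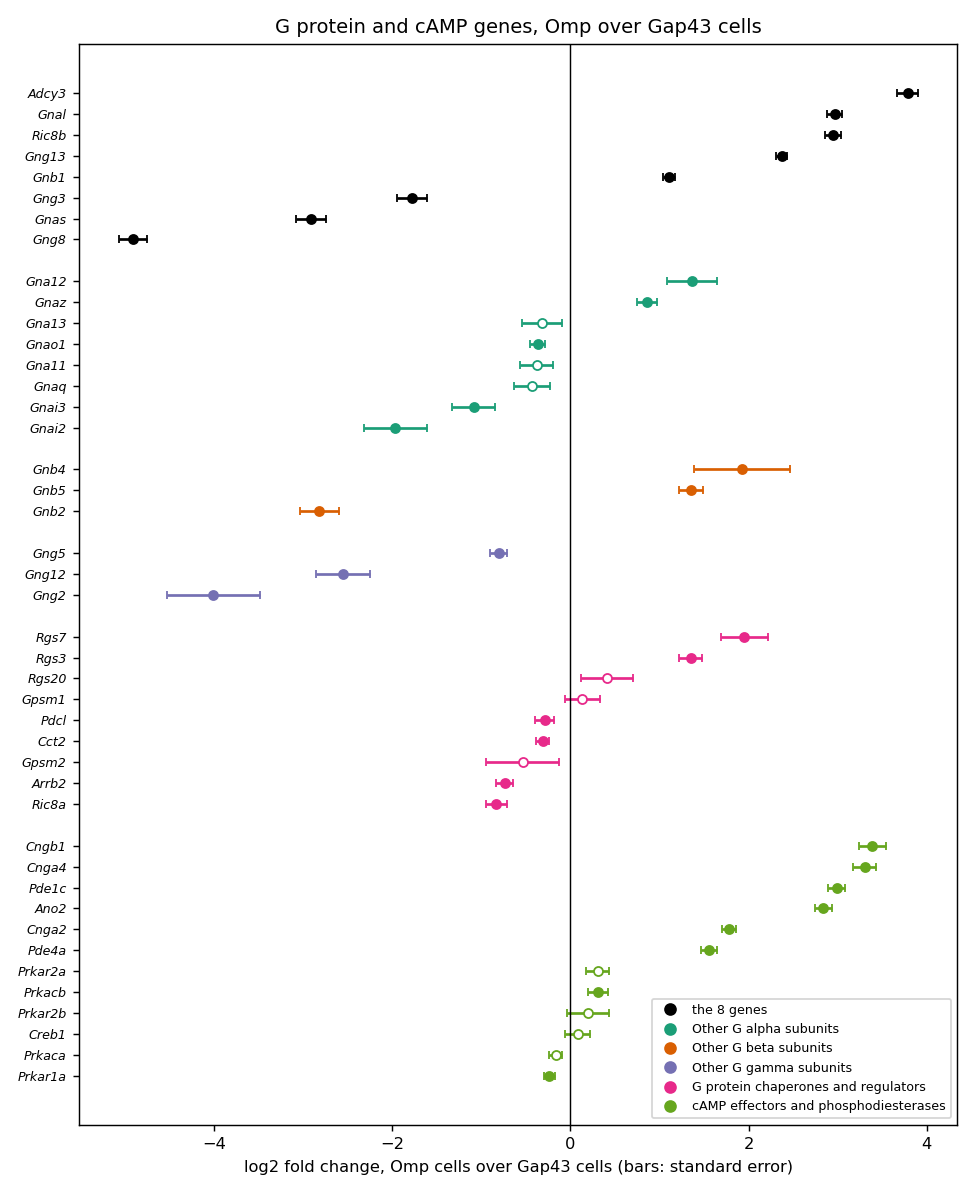
Log2 fold change (x axis) of Omp over Gap43 cells for the 8 genes and the tested genes of 5 lists, with standard errors. Filled points passed an adjusted p of 0.05 and open points did not. The 3 other gamma subunits that passed the expression filter lie below 0, and Gnb2 and Ric8a lie opposite to Gnb1 and Ric8b.

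Genes with the most similar pattern were sought over 20 sums (5 classes of cell in 4 libraries) by Pearson's r of log2(CPM + 10), among 6191 genes. The sums share libraries and stages, so r is a description. Nearest to Gnas were Ifitm2 (r = 0.987; its 3' end is nearly identical to other annotated genes, so its count is uncertain), Pebp1 (0.978) and the beta subunit Gnb2 (0.974). Near to Gnal were Fam131c (0.992) and Gramd1c (0.991), and nearest to Gng8 were Stmn1, a microtubule regulator of growing neurons (0.984), Bzw2 (0.969) and Rprm (0.968). Jakmip1 (0.994, with a near-identical copy), Them6 (0.992) and Acbd7 (0.991) were nearest to Gng13, and Nsg1 (0.992) and 2900055J20Rik (0.991) to Gnb1. Ric8b was nearest to Cngb1 (0.989), Cacnb3 (0.989) and Gm42912 (0.989), and Adcy3 to Scgn (0.988), Scn4b (0.979) and Pde1c (0.978). Gng3 had looser neighbours, led by Zdhhc12 (0.956), Mvk (0.949) and Tbcb (0.946). Among the 8 genes themselves, r was -0.98 between Gnas and Gnal and 0.99 between Gnal and Gng13, but 0.09 between Gng8 and Gng13, Gng8 being highest in Gap43 cells.

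Gnas is a locus with several first exons that share their last exons, so 3' counts do not separate its products. The antisense transcript Nespas lies across it and averaged 0.407 CPM in Omp cells and 5.37 CPM in Gap43 cells; the labels do not state whether counting used strand. The genes found in the tables that overlap Gnal, Gng13, Gnb1, Gng3 and Adcy3 averaged at most 33.7 CPM in any of the 3 stages. The last 500 bases of the 8 transcripts matched no other annotated gene over 90 bases or more at 95% identity.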

How the data were processed

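Single-cell 3' libraries of olfactory epithelium at 4 ages, 1 per age, were analysed. The authors deposited UMI counts for each gene in each cell, not normalized. Cell Ranger 2.1.1, Seurat and mm10 are named in the submitters' processing notes, without their roles; their gene annotation is not stated there, nor how cells were filtered. Cells with under 500 genes, over 10% mitochondrial or over 10% haemoglobin UMIs (17 cells) were removed, as were 59 cells called doublets by Scrublet (scanpy 1.11.5), 0.647% of 9126, so doublets remain. Another 560 cells had under 1500 UMIs. Cells were thinned once with a fixed seed for the gates and for shares of cells. Levels used all UMIs of the gated cells, so deeper cells weigh more.

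Sums per library and stage were tested with edgeR 4.0.16 (TMM, default expression filter) with library as a block, since the stages of a library come from the same sample; Omp and Gap43 were left out. Standard errors (SE) of log2 fold changes were derived from that test, as the absolute log2 fold change divided by the square root of its F statistic. The script was tested on simulated data. Levels have exact Poisson intervals, shares exact binomial ones and CPM ratios exact conditional binomial ones, all at 95% and covering counting error only. DESeq2 1.42.0, other gates, filters, scalings and libraries left out were alternatives. Removing shared barcodes was chosen after seeing the data. Positions are from GENCODE vM21 (47240 of 49671 symbols found), promoters from RefSeq. From each list, up to 3 genes past the threshold in each direction, with the largest fold change, were named. For each of the 8 genes, the 3 most similar were named, leaving out odorant receptor, mitochondrial, ribosomal and haemoglobin genes; some items are not reported here. The 8 genes, the lists and the tests were chosen with earlier results of these data known.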

Additional observations from a re-analysis of the deposited data

Results flagged for a closer look

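For each gene and contrast the 4 libraries' log2 ratios, and for each subunit pair and stage the 4 shares, were screened for a single library far from the others, in 30 groups of 4. Chance flags about 1 in 20 such groups. Both results found concern the P7 library, in which both-positive cells were fewest (69 cells). For Gnas, both-positive over Gap43 cells had a log2 CPM ratio of -3.37 at P7, against -2.17 to -2.02 in the other 3 libraries; the P7 value rests on 36.4 CPM in both-positive cells (interval 19.9 to 61.1). For Gng13 the same ratio was 1.96 at P7, against 1.67 to 1.70 in the others. Its levels at P7 in Gap43 cells (955 CPM) and in both-positive cells (3725 CPM) were each the lowest of the 4 libraries. Without the P7 library both genes still passed the test in that contrast.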

How the results depend on the processing

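Of 408 values of the 8 genes in stage contrasts under alternatives, 399 kept their direction and side of the threshold. Every exception was in 2 comparisons. For Gnas, Omp over both-positive cells, the log2 fold change was 0.41 with the gate at 1 UMI, and it passed in 5 alternatives (-0.93 to -0.65). For Gng3, both-positive over Gap43 cells, it was 0.13 with the gate at 1 UMI, 0.20 with unthinned gates and -0.12 to 0.067 with 1 library left out (positive without P0), never past the threshold. Both shares of subunit pairs kept their direction in all 28 alternatives.

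Counts of genes moved by over 1.5 times as follows. For Omp over Gap43 cells (2916 higher, 2909 lower), thinned sums, which test fewer genes, gave 1782 and 1703. For both-positive over Gap43 cells (1837 and 1581), thinned sums gave 1004 and 791, a gate at 3 UMIs 1044 and 902, unthinned gates 2413 lower, and no replicate block 990 lower. For Omp over both-positive cells (920 and 829), thinned sums gave 371 and 311, a gate at 3 UMIs 566 and 406, unthinned gates 1561 and 1483, and no replicate block 399 and 350. Leaving out P3 gave 581 and 520, and leaving out P21 gave 547 lower. The other counts with 1 library left out, 630 to 677 higher and 595 lower, stayed within 1.5 times. Where no construction shows it, the cause was not tested. The block changed the call of none of the 8 genes. With library totals 38.2% of calls in Omp over both-positive cells were higher, against 52.6%.

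Of 288 P21 ratios under alternatives, 229 stayed within the counting interval of the P0 ratio, 58 moved outside it, and 1, called against P0, also crossed 1: Gnas in Omp cells was at 1.26 against P7. Ratios under 1.5-fold against P0 crossed 1 too, such as Gng13 in Gap43 cells at 1.27 against P7 (0.880 against P0). Few both-positive cells and low Gnas counts limit precision.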
